A study of Mus musculus with 135 samples.

Results

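The sirtuin family was followed through bulk RNA-seq of cerebral cortex and hippocampus from Townes mice, a humanized model of sickle cell disease. The members were the 7 rows named Sirt1 to Sirt7 among 55416 genes in the read count table of each tissue, and all 7 were found in both tables. AA mice carry normal human haemoglobin and SS mice carry human sickle haemoglobin, and all animals in both genotypes were males of this transgenic line. Repeated social defeat (RSD) placed an aggressive male intruder in the home cage on consecutive nights, and minocycline, a tetracycline antibiotic, was given in drinking water. Each tissue had 8 groups, and each library came from 1 mouse.

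In cortex, 12 AA, 1 AA + minocycline, 2 AA + RSD, 18 AA + RSD + minocycline, 8 SS, 4 SS + minocycline, 6 SS + RSD and 14 SS + RSD + minocycline libraries entered the comparisons. In hippocampus, AA had 11 libraries, SS had 7 and the other groups had the same numbers as in cortex. Reads assigned to genes ran from 16295042 to 107713193 per cortex library (median 33848502) and from 12869149 to 68731008 per hippocampus library (median 36523234). Values below are CPM, the reads of a gene per 1000000 reads assigned to any gene. All 7 members passed the filter on low counts: the fewest reads of any member in a library were 133 (Sirt1, cortex), and Sirt4 had 144 to 2793 reads in cortex and 151 to 1687 in hippocampus. The labels did not give pools or technical repeats.

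Several libraries went against their labels. A pair of mice, 9887 (SS + minocycline) and 9877 (AA + RSD + minocycline), had identical counts in each tissue and was left out, since identical counts cannot belong to both groups. Both libraries of mouse 9674 were also left out: on a scale built from genes that separate the tissues, where other cortex libraries lay at most at 45.5 and other hippocampus libraries at least at 56.2, its cortex library lay at 97.9 and its hippocampus library at -2.08. Markers of red cell precursors or mouse haemoglobin went against the labelled genotype in the libraries labelled 5844, 5853, 7078 and 9631. These libraries were kept, and sirtuin calls that changed without them are given with both values. In the left-out libraries Sirt4 was at 10.05 CPM in both identical cortex libraries and at 8.65 CPM in the cortex library labelled 9674.

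Sirtuins are enzymes that remove acyl groups from proteins and use up NAD as they do so, which ties their activity to the energy state of the cell. SIRT1 acts mainly in the nucleus on transcription factors, SIRT2 is the main cytosolic member and is abundant in myelin-forming oligodendrocytes, and SIRT6 and SIRT7 work on chromatin, SIRT7 also in the nucleolus. SIRT3, SIRT4 and SIRT5 are mitochondrial: SIRT3 is the main deacetylase there, SIRT4 restrains glutamate dehydrogenase and SIRT5 removes succinyl and malonyl groups.

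On GRCm39 the genes lie at chr10:63154581-63217483 (Sirt1), chr7:28466160-28488090 (Sirt2), chr7:140443577-140462311 (Sirt3), chr5:115616065-115622784 (Sirt4), chr13:43518856-43550487 (Sirt5), chr10:81455262-81463631 (Sirt6) and chr11:120509197-120516066 (Sirt7). Sirt2 and Sirt5 are on the plus strand and the others on the minus strand. Exons of genes on the opposite strand cover 18% of Sirt1's exonic bases, 10.2% of Sirt4's, 4.02% of Sirt6's and none of Sirt7's. Exons of Mafg and of a miRNA gene on the same strand cover 3.48% of Sirt7's exonic bases. The strand setting of the counting is not given in the sources used here, so reads from those overlaps cannot be assigned with certainty.

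Sirt4, Sirt6 and Sirt7 were the members whose values separated the libraries most, as described below, so the 250 bases before a RefSeq start of each are shown (GRCm38.p6, all read 5′ to 3′ on the minus strand). They lie at chr5:115484298-115484547 (Sirt4), chr10:81627567-81627816 (Sirt6, before 1 of its 2 listed starts) and chr11:120625015-120625264 (Sirt7). Capitals mark the letters CCGGAAG or their reverse complement CTTCCGG, the core bound by ETS-family factors, searched on both strands.
Sirt4: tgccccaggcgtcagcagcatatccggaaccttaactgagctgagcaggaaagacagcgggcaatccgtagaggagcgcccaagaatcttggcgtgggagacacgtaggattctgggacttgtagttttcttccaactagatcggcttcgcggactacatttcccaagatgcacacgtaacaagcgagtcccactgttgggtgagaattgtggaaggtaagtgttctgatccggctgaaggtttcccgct
Sirt6: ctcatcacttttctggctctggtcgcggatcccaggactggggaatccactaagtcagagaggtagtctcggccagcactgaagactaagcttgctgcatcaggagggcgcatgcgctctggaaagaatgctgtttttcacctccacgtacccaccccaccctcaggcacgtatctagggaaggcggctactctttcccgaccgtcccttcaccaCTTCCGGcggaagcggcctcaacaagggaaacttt
Sirt7: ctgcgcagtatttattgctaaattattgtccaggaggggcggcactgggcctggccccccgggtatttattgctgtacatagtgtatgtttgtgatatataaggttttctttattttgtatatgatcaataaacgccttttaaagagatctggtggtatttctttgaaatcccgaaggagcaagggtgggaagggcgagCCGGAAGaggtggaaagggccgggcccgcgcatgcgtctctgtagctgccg
The letters occurred once each in the Sirt6 and Sirt7 windows shown and once in 1 of the Sirt3 windows. The window before the other listed Sirt6 start (chr10:81627323-81627572) and those of the other members did not hold them. Other motifs were also searched and are not marked here. Of 32851 promoter windows of the same length, 6.91% held them. The GC content of these windows was 53.2% (Sirt4), 56.8% (Sirt6) and 48.8% (Sirt7), beside a median of 52.4% over all windows, and they held 14, 13 and 12 CpG dinucleotides beside a median of 6.

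Per kilobase of exon, Sirt2 was the most abundant member. In cortex of AA mice in the first part of the count table (see the column blocks below), Sirt2 lay at 24.6 ± 1.59 CPM per kb (SD, n = 6), followed by Sirt7 (8.12 ± 1.07), Sirt4 (7.75 ± 0.765), Sirt3 (6.38 ± 0.423), Sirt6 (2.86), Sirt1 (2.77) and Sirt5 (1.28). The means of Sirt7 and Sirt4 lay within 1 SD of each other, and so did those of Sirt6 and Sirt1 on this scale. The order of the middle members depended on the libraries. In the 6 AA cortex libraries of the later columns, Sirt3 (7.40 CPM per kb) came above Sirt7 (4.73) and Sirt4 (3.67). It also depended on the length used, since per kilobase of the longest transcript Sirt3 (13.1) and Sirt7 (12.8) both lay above Sirt4 (11.1) in the earlier columns.

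The columns of both tables fell into blocks by Sirt4. Libraries in columns 1 to 37 had Sirt4 at 17.5 to 28.8 CPM in cortex (median 24.8, n = 37), and those from column 39 on had it at 7.15 to 15.1 CPM (median 9.92, n = 28). In hippocampus the earlier columns lay at 18.5 to 33.6 CPM (median 22.9, n = 36) and the later ones at 6.05 to 15.03 CPM (median 9.16, n = 27). The boundary was placed after Sirt4 and the share of reads outside genes had been seen, so the separation of Sirt4 describes how the blocks were drawn and carries no test. What the column order stands for is not given in the sources used here.

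Sirt7 separated at the same boundary. It lay at 33.63 to 58.5 CPM (median 48.6) in the earlier and 18.5 to 33.62 CPM (median 25.2) in the later cortex columns, and at 36.7 to 62.9 (median 46.4) and 20.4 to 33.2 CPM (median 24.03) in hippocampus. Sirt6 came close: 35 of 37 earlier cortex libraries and 35 of 36 earlier hippocampus libraries lay above every later one, with medians of 20.6 against 13.1 CPM and 21.7 against 12.97 CPM. Genes whose earlier libraries all lay above all later ones made up 1.14% of 22870 in cortex and 3.84% of 23372 in hippocampus, and Sirt4 and Sirt7 were 2 of them in each tissue. With trimmed-mean scaling (TMM) the shares were 0.77% and 2.82%, and of the sirtuins Sirt4 alone was among them.

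The other members differed less and not all in the same direction. Sirt1 had medians of 15.3 and 11.1 CPM in the earlier and later cortex columns and 15.5 and 11.7 CPM in hippocampus. Sirt5 had 12.6 and 10.9 CPM in cortex and 12.1 and 11.3 CPM in hippocampus. Sirt2 and Sirt3 were lower in the earlier columns, with Sirt2 medians of 131.5 and 140.9 CPM in cortex and 134.7 and 150.9 CPM in hippocampus, and Sirt3 medians of 58.1 and 64.6 CPM and of 53.1 and 61.7 CPM. The log2 ratio of the block means, earlier over later, was 1.23 for Sirt4, 0.88 for Sirt7, 0.59 for Sirt6, 0.48 for Sirt1, 0.19 for Sirt5, -0.12 for Sirt2 and -0.14 for Sirt3 in cortex. In hippocampus it was 1.28, 0.88, 0.71, 0.43, 0.11, -0.16 and -0.19 in the same order.

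**Figure D1:**
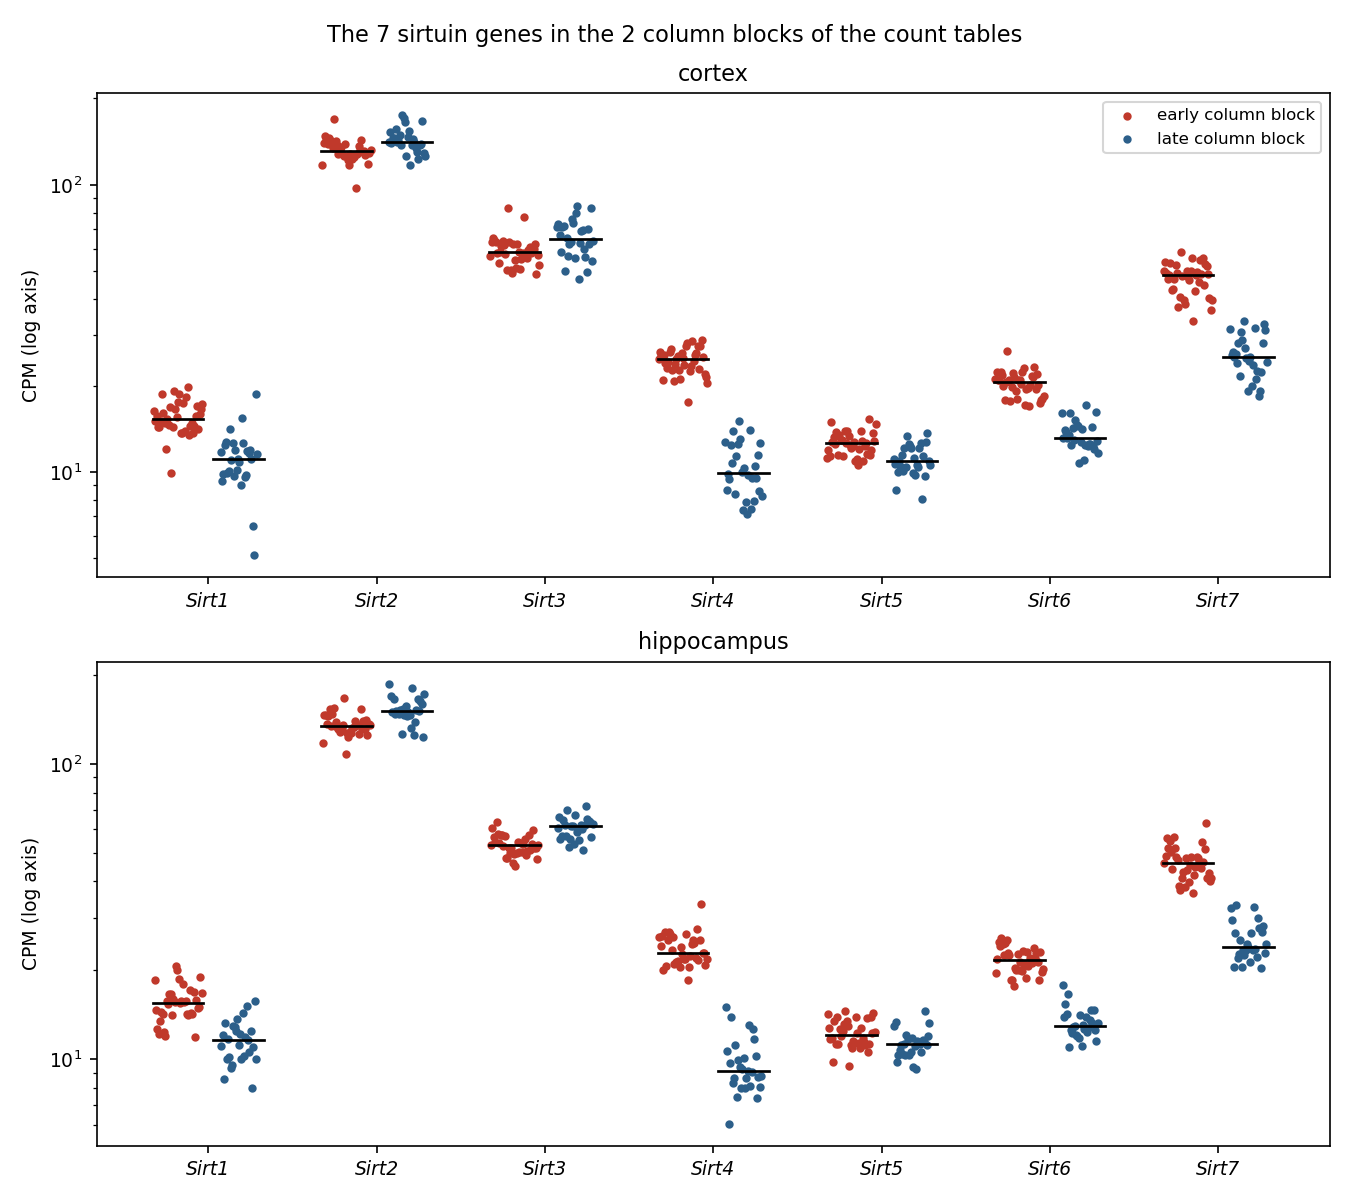
CPM of each sirtuin gene (log axis) in every library of cortex and hippocampus, with libraries in columns 1 to 37 in red, those from column 39 on in blue and black lines at the block medians. Sirt4 and Sirt7 show no overlap between the colours in either tissue, while Sirt2, Sirt3 and Sirt5 overlap widely.

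In 5 groups libraries stood in both blocks (AA, AA + RSD + minocycline, SS, SS + minocycline and SS + RSD + minocycline). That Sirt4 and Sirt7 did not overlap between blocks within these groups follows from their separation over all libraries. Their log2 ratios of earlier to later libraries within the groups were 1.08 to 1.30 (cortex) and 1.02 to 1.49 (hippocampus) for Sirt4 and of 0.37 to 0.97 and 0.56 to 1.02 for Sirt7. For Sirt6 the ratios were 0.40 to 0.67 in cortex and 0.44 to 0.87 in hippocampus. For Sirt1 they were 0.22 to 1.62 and 0.37 to 0.74. Sirt2 had ratios of -0.265 to -0.047 and -0.49 to -0.11, and Sirt3 of -0.54 to 0.08 and -0.33 to -0.16. Those of Sirt5 were 0.045 to 0.23 and -0.14 to 0.155. In SS + minocycline each block held only 2 libraries.

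Other measures moved with the blocks. Reads mapped outside annotated genes made up 4.27% to 13.9% of a library (median 9.75%) in the earlier cortex columns and 3.68% to 9.84% (median 5.13%) in the later ones. In hippocampus the shares were 6.49% to 24.01% (median 9.32%) and 3.98% to 9.48% (median 4.71%). The summed CPM of 6 microglia markers was lower in the earlier columns, with medians of 268 against 341 in cortex and of 300 against 380 in hippocampus, where the blocks did not overlap. That of the red cell precursor markers, which also differed between SS and AA, had medians of 25.02 against 107 in cortex and 12.4 against 73.3 in hippocampus and overlapped between blocks in both. That of the choroid plexus markers had medians of 10.1 against 17.03 and 54.05 against 100.8 and overlapped too. Oligodendrocyte marker sums had medians of 2745 against 3079 in cortex and 2741 against 3294 in hippocampus, also with overlap. Multi-mapped reads had medians of 4.47% against 5.72% in cortex and 4.61% against 5.403% in hippocampus. The part of these measures in the sirtuin values was not tested.

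Shares of reads outside genes overlapped between the blocks. The cortex libraries of mice 5354 and 9888 had 8.39% and 9.84% of reads outside genes and Sirt4 at 9.87 and 11.5 CPM. The cortex library of mouse 7076 had 4.27% of reads outside genes with Sirt4 at 24.8 CPM. Within blocks the relation of a sirtuin to the share was computed 28 times (7 genes, 2 tissues, 2 blocks). None had an adjusted permutation p under 0.05 by Pearson's r, and 1 did by Spearman's rho, Sirt4 in the later cortex columns (r = 0.48, adjusted permutation p = 0.19; rho = 0.70, adjusted permutation p = 0.00392, n = 28). Its r was 0.75 without the 2 libraries farthest from the median share. Within hippocampus libraries of number series A (defined below, n = 13), r was 0.73 for Sirt4, 0.77 for Sirt6 and 0.69 for Sirt7. The adjusted permutation p-values were 0.0693, 0.0549 and 0.0893. In the 8 hippocampus libraries of series C, r was -0.24 for Sirt4, -0.66 for Sirt6 and 0.01 for Sirt7.

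**Figure D2:**
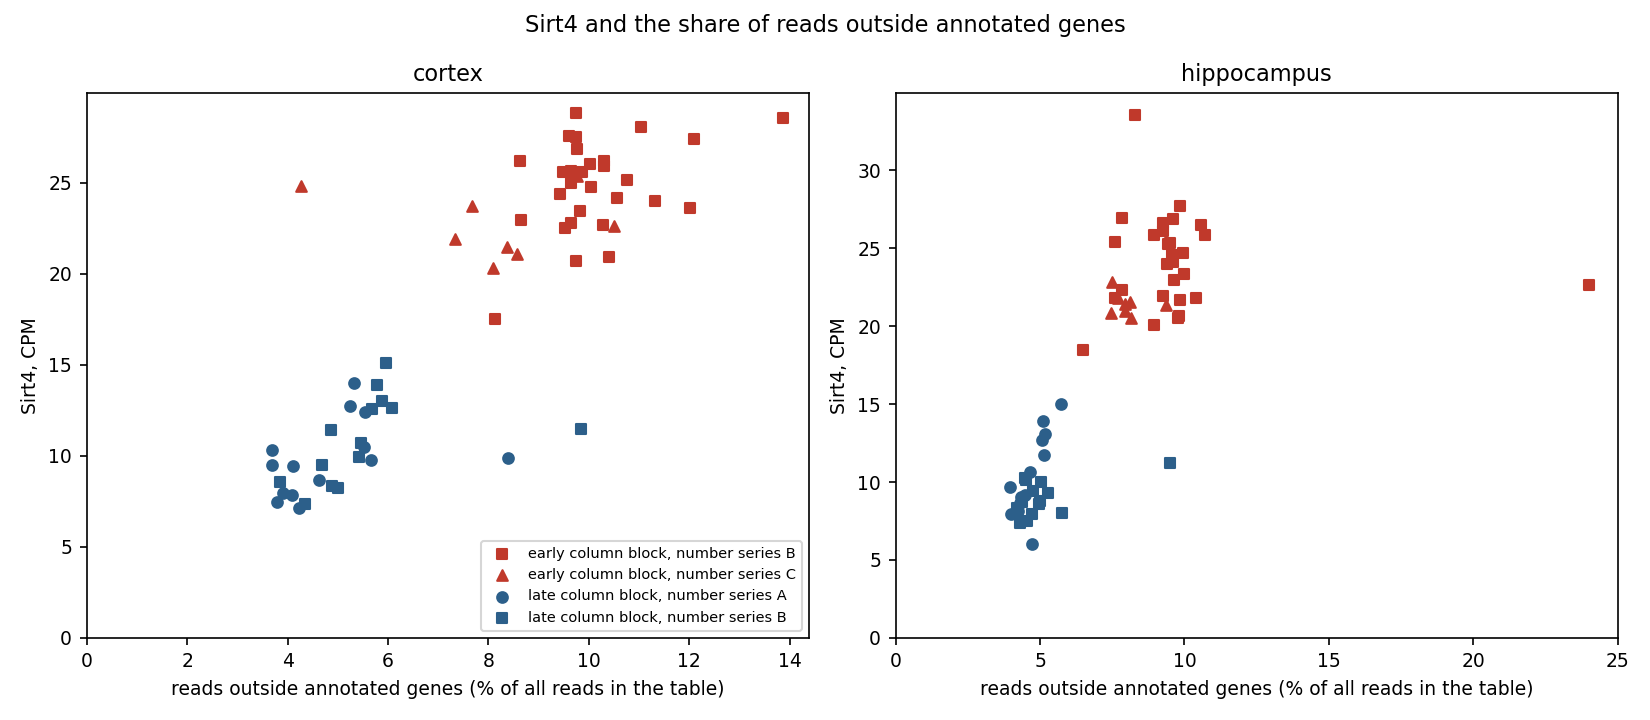
Sirt4 CPM against the percentage of reads mapped outside annotated genes, 1 point per library, in cortex and hippocampus. Colour marks the column block, and marker shape marks the series of mouse numbers defined below (A circles, B squares, C triangles). The later-column libraries stay at or below 15.1 CPM at every share up to 9.84%, and the earlier ones stay at or above 17.5 CPM down to a share of 4.27%.

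RSD against no RSD in SS mice asked what social defeat changed in sickle mice. Sirt4, the mitochondrial regulator of glutamate use, and Sirt7, the nucleolar member, fell in both tissues, and Sirt6 was lower without passing the test. All 6 SS + RSD libraries lay in the later columns, while 6 of 8 cortex SS libraries lay in the earlier ones. In cortex Sirt4 was at 23.5, 24.8, 26.2, 27.5, 28.1 and 28.8 CPM in the SS libraries of the earlier columns and at 8.67 and 12.8 CPM in the 2 of the later columns. The 6 SS + RSD libraries were at 7.15, 7.85, 9.47, 9.87, 10.3 and 12.4 CPM. The SS + RSD libraries thus lay below every SS library of the earlier columns and spanned 1 of the 2 SS libraries of the later columns.

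The same order held for Sirt7 in cortex, which was at 47.1, 48.7, 50.17, 50.23, 52.4 and 55.6 CPM in the earlier SS libraries and at 25.6 and 31.4 CPM in the later ones. The SS + RSD libraries were at 20.01, 24.4, 25.1, 25.2, 25.8 and 26.1 CPM, so they overlapped only the lower of the 2 later SS libraries. Sirt6 lay at 19.7 to 23.1 CPM in earlier SS, at 13.1 and 15.99 CPM in later SS and at 10.97 to 14.1 CPM in SS + RSD. By edgeR's quasi-likelihood test with Benjamini-Hochberg adjustment over 19906 genes, of which 2.57% were called at an adjusted p under 0.05, 2 of the 7 sirtuins were called. Sirt4 fell by 1.11 on the log2 scale (SE 0.261, adjusted p = 0.0405) and Sirt7 fell by 0.75 (SE 0.158, adjusted p = 0.0405). Sirt6 had a log2 fold change of -0.44 (SE 0.139, adjusted p = 0.0648), and the other 4 members lay between -0.16 (Sirt1) and +0.24 (Sirt3).

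Hippocampus gave the same pattern. Sirt4 was at 21.83, 22.3, 25.9, 26.5 and 33.6 CPM in the 5 earlier SS libraries, at 10.6 and 15.03 CPM in the 2 later ones and at 6.05, 7.97, 8.64, 9.16, 9.69 and 13.9 CPM in SS + RSD. Sirt7 was at 44.9, 45.4, 46.3, 48.2 and 62.9 CPM in the earlier SS libraries, at 29.7 and 32.6 CPM in the later ones and at 20.6, 21.4, 23.4, 26.80, 26.83 and 33.2 CPM in SS + RSD. For Sirt4, 1 SS + RSD library (13.9 CPM) lay between the 2 later SS libraries. For Sirt7, 1 SS + RSD library (33.2 CPM) lay above both later SS libraries. For neither gene did an SS + RSD library reach the range of the earlier SS libraries. Of 20701 genes 3.11% were called, 2 sirtuins among them: Sirt4 fell by 1.14 (SE 0.299, adjusted p = 0.0439) and Sirt7 fell by 0.69 (SE 0.191, adjusted p = 0.0452). Sirt6 was at -0.41 (adjusted p = 0.110). Without the libraries labelled 5844, 5853, 7078 and 9631, the adjusted p was 0.0519 for Sirt4 and 0.0531 for Sirt7.

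With the column block as a term in the model, no sirtuin and no other gene was called in either tissue. The log2 change of Sirt4 was then -0.22 (SE 0.130, adjusted p = 0.993) in cortex and -0.25 (SE 0.152, adjusted p = 0.406) in hippocampus, and that of Sirt7 was -0.26 (SE 0.0939, adjusted p = 0.247) and -0.18 (SE 0.128). Among the later columns alone Sirt4 was at -0.13 (SE 0.241) in cortex and -0.43 (SE 0.227) in hippocampus and Sirt7 at -0.18 (SE 0.154) and -0.25 (SE 0.1504), and no sirtuin was called. Unadjusted p-values under 0.05 were found for 1 of 7 members in each tissue with the block term. For Sirt4, here and below, a smaller change under this term carries no test, because the boundary was drawn after Sirt4 was seen. The comparison within the later columns rests on 2 SS mice. For most of the SS mice, RSD and column block cannot be told apart.

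The calls also rested on single libraries. Leaving out any of the SS + RSD mice 5354, 5391, 9615, 9616 and 9621 ended both calls in both tissues, with adjusted p-values for Sirt4 of 0.0511 to 0.0899 in cortex and 0.0733 to 0.107 in hippocampus and for Sirt7 of 0.0511 to 0.0899 and 0.079 to 0.118. Leaving out mouse 5400 kept them (Sirt4 -1.23, adjusted p = 0.0377, in cortex and -1.32, adjusted p = 0.0249, in hippocampus). The log2 change of Sirt4 stayed between -1.23 and -1.03 in cortex and between -1.32 and -1.05 in hippocampus.

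**Figure D3:**
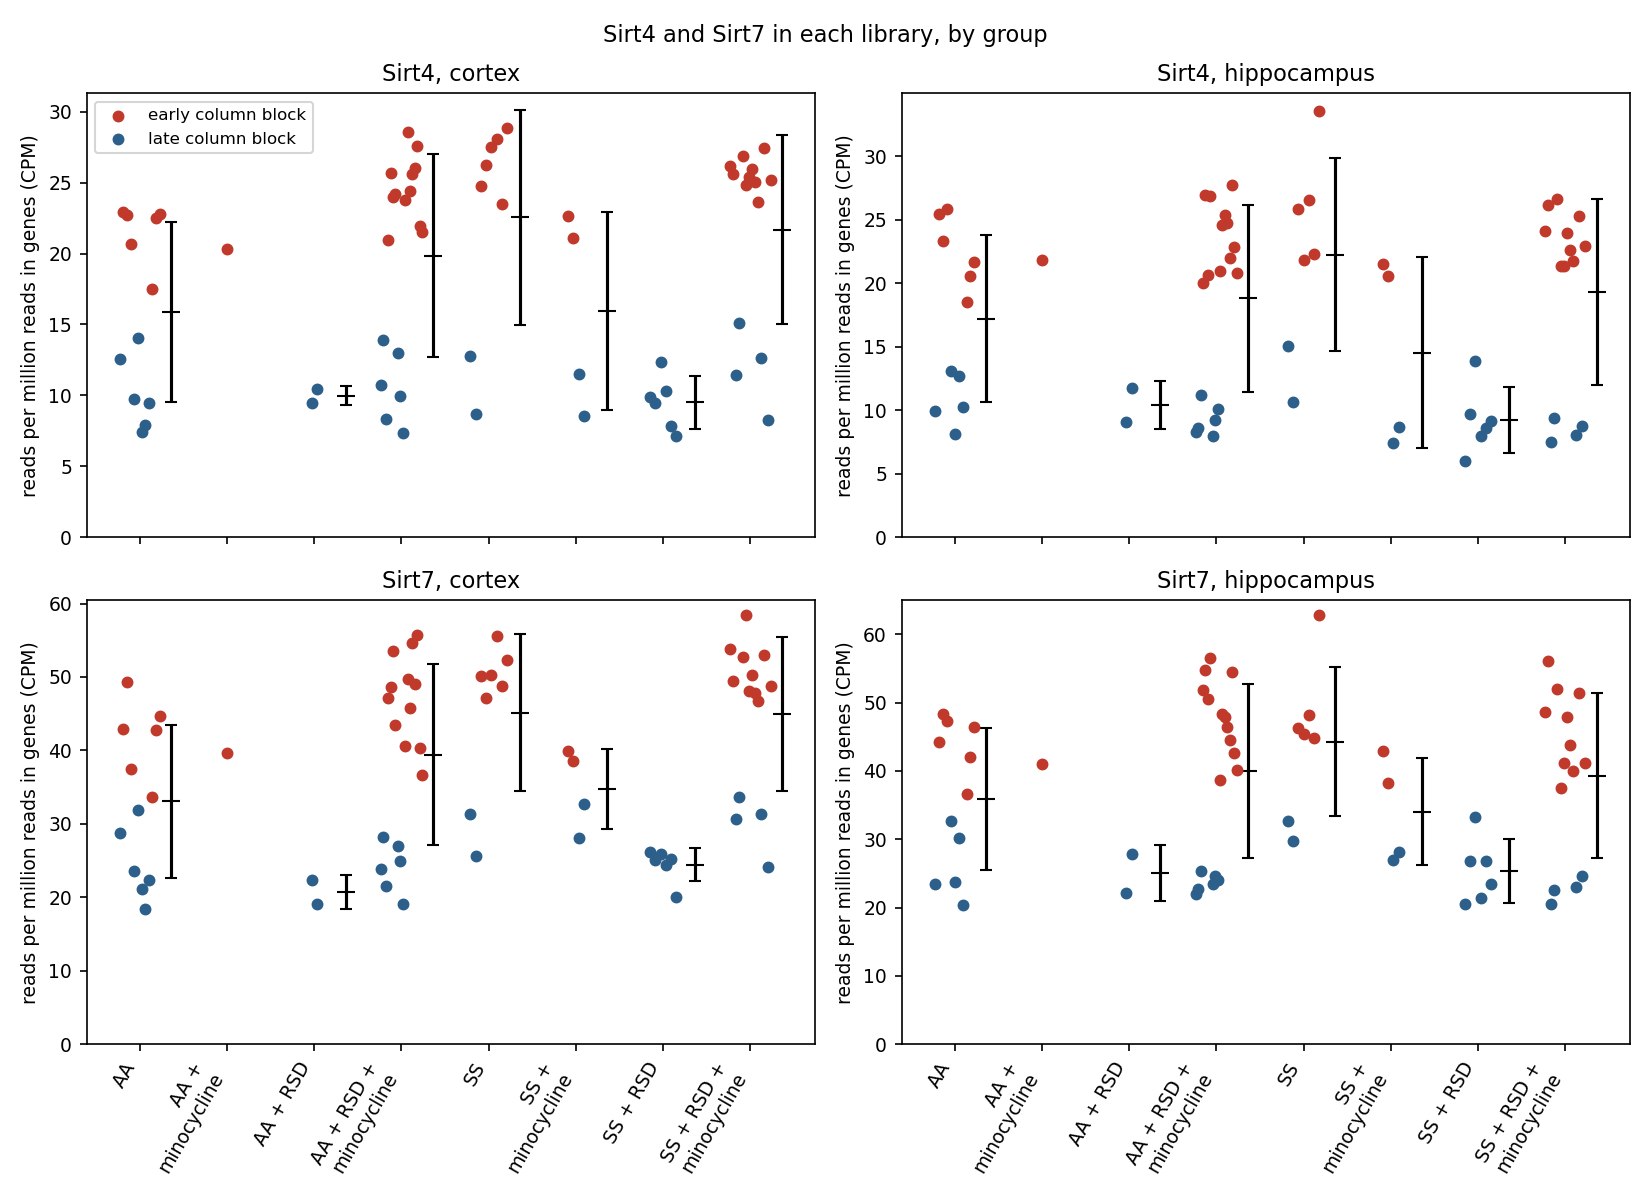
CPM of Sirt4 and Sirt7 in each library of the 8 groups, in cortex and hippocampus, with red points for libraries in columns 1 to 37, blue points for those from column 39 on and black marks for the group mean ± SD. Groups with both colours split into a higher red and a lower blue cluster, and SS + RSD and AA + RSD hold blue points alone.

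Minocycline during RSD in SS mice was compared with RSD alone. Sirt4, Sirt7 and Sirt6 rose in cortex and Sirt4 rose in hippocampus, without a term for column block or number series. This comparison uses the same SS + RSD libraries as the one before. All SS + RSD mice were in number series A (defined below), and all SS + RSD + minocycline mice were in B or C. With the series as a term no sirtuin was called, and Sirt4 and Sirt7 had negative changes in both tissues (closing section). In cortex, the SS + RSD + minocycline group held Sirt4 at 23.7 to 27.4 CPM (median 25.5) in its 10 earlier libraries and at 8.25 to 15.1 CPM (median 12.01) in its 4 later ones, and Sirt7 at 46.8 to 58.5 CPM (median 49.8) and 24.1 to 33.62 CPM (median 31.01). Of the 4 later libraries, 2 lay within the SS + RSD range for Sirt4 and 1 for Sirt7, and the others lay above it. The 10 earlier ones lay above it for both genes.

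In the cortex model 8.85% of genes were called, and of the sirtuins 3 of 7. Sirt4 rose by 1.06 on the log2 scale (SE 0.242, edgeR adjusted p = 0.0114), Sirt7 rose by 0.75 (SE 0.146, adjusted p = 0.0079) and Sirt6 rose by 0.42 (SE 0.127, adjusted p = 0.037). DESeq2 called 4 of 7 sirtuins, with Sirt5 (+0.20) beside these 3, and 13.6% of genes. Leaving out any 1 SS + RSD mouse kept the calls of Sirt4 and Sirt7. Sirt6 lost its call without mouse 5354, 5400, 9615, 9616 or 9621 (adjusted p 0.0511 to 0.0842), and without the libraries labelled 5844, 5853, 7078 and 9631 (adjusted p = 0.0516).

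In hippocampus Sirt4 lay at 21.3 to 26.6 CPM (median 23.5) in the earlier SS + RSD + minocycline libraries and at 7.48 to 9.41 CPM (median 8.42) in the later ones, the latter within the SS + RSD range. Sirt7 lay at 37.6 to 56.1 CPM (median 45.9) and at 20.5 to 24.6 CPM (median 22.7). The test called 5.96% of genes and 1 sirtuin, Sirt4, which rose by 0.96 (SE 0.270, adjusted p = 0.0361). Sirt7 was at +0.54 (SE 0.171, adjusted p = 0.0519) and Sirt6 at +0.36 (adjusted p = 0.0861). Sirt4 lost its call without mouse 5354, 5391, 9615, 9616 or 9621 (adjusted p 0.0646 to 0.0885), and Sirt7 gained one without mouse 5400 (adjusted p = 0.0321).

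With the column block as a term, Sirt4 stood at +0.22 (SE 0.119, adjusted p = 0.509) and Sirt7 at +0.28 (SE 0.0862, adjusted p = 0.241) in cortex, with no gene called. In hippocampus Sirt4 stood at +0.02 (SE 0.141) and Sirt7 at +0.02, while 3.98% of genes were still called and no sirtuin was. Within the later columns, the cortex values were +0.26 (SE 0.190) for Sirt4, +0.24 (SE 0.122) for Sirt7 and -0.02 for Sirt6. The hippocampus values were -0.09 for Sirt4 and -0.12 for Sirt7. No gene was called in either tissue. Sirt5 was the member with the smallest adjusted p in hippocampus with the block term, at +0.30 (adjusted p = 0.0621), after -0.31 (adjusted p = 0.291) for RSD against no RSD; its CPM was 11.3 to 14.2 in SS and 9.29 to 11.1 in SS + RSD.

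**Figure D4:**
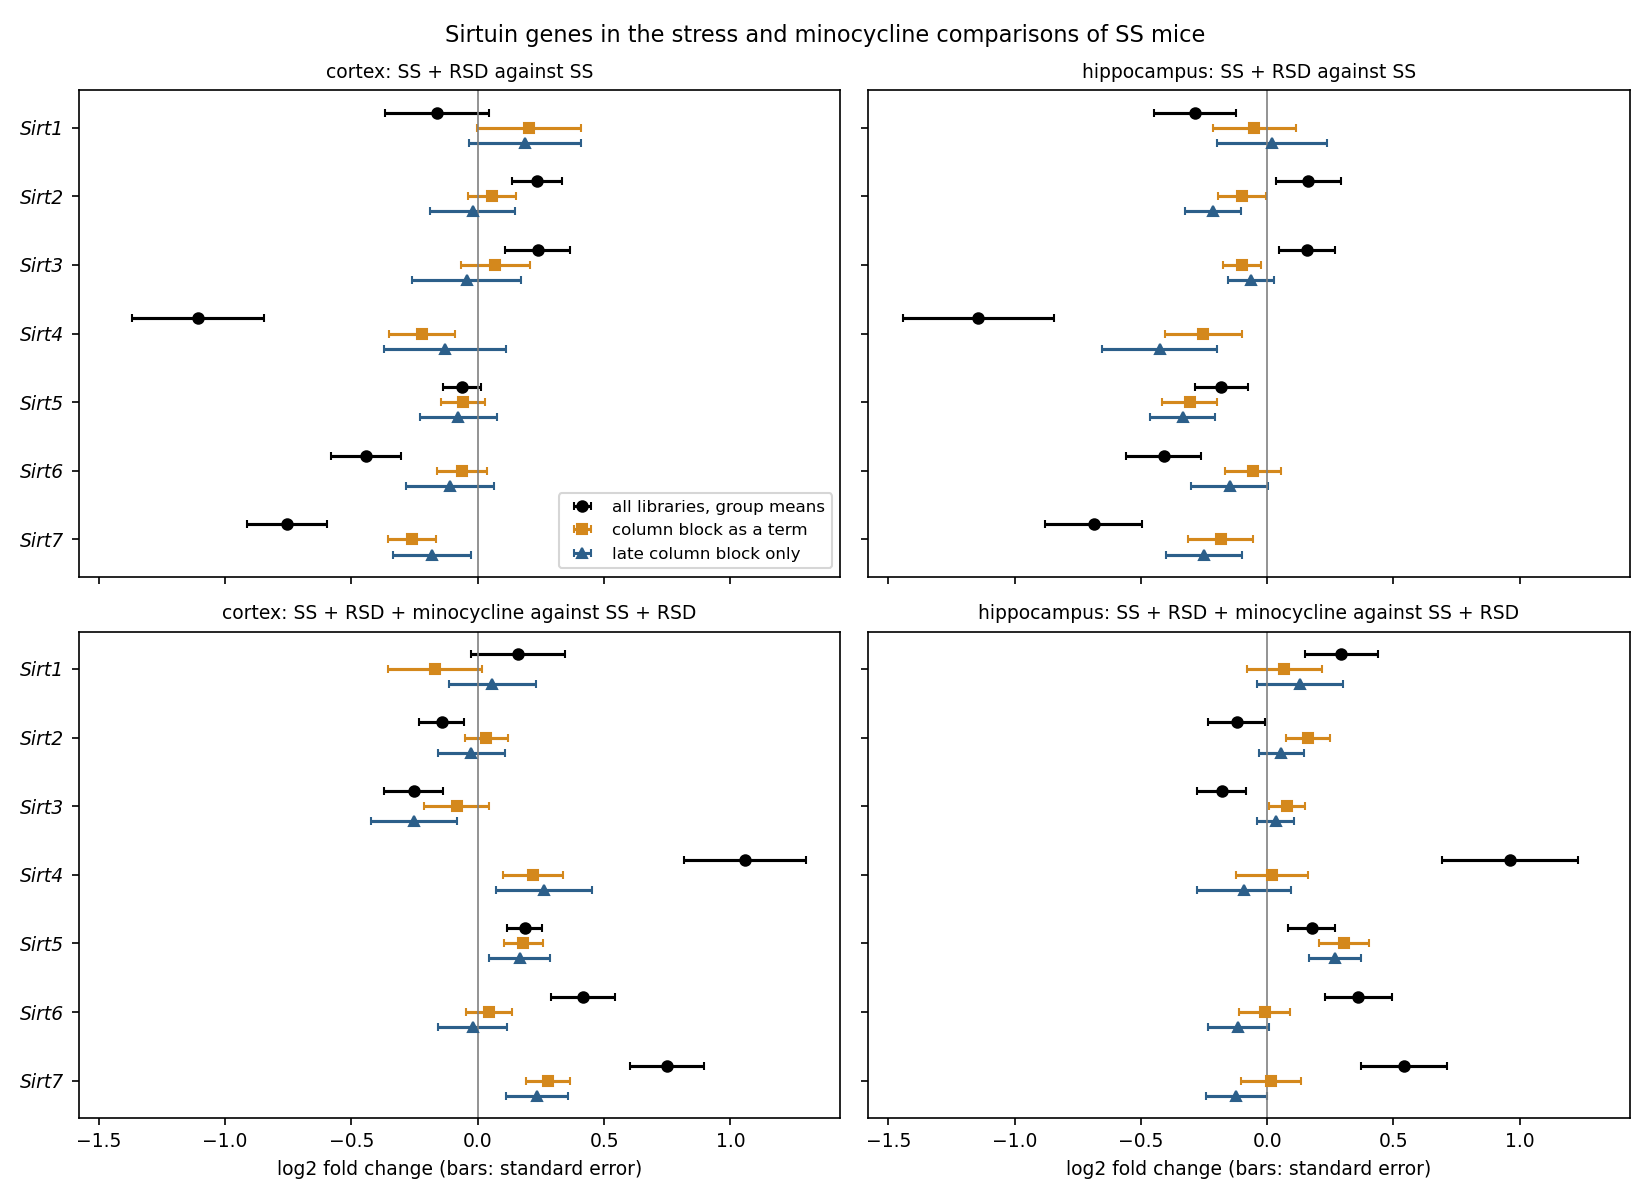
Log2 fold change of each sirtuin gene with its standard error for SS + RSD against SS and for SS + RSD + minocycline against SS + RSD, in both tissues, from all libraries (black), with the column block as a term (orange) and in the later columns alone (blue). The Sirt4, Sirt6 and Sirt7 estimates from all libraries stand furthest from 0, and the orange and blue estimates of these genes lie closer to 0.

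RSD in AA mice rested on 2 exposed animals, both in the later columns. Sirt4 was at 9.50 and 10.5 CPM in cortex and at 9.06 and 11.7 CPM in hippocampus, within the 7.45 to 14.02 CPM and 8.15 to 13.1 CPM of the later AA libraries and below the 17.5 to 22.9 CPM and 18.5 to 25.9 CPM of the earlier ones. Sirt7 was at 19.1 and 22.4 CPM in cortex, where the later AA libraries ran from 18.5 to 31.8 CPM, and at 22.2 and 27.9 CPM in hippocampus. Against all AA mice, Sirt4 had a log2 change of -0.65 (SE 0.425, adjusted p = 0.822) in cortex and -0.74 (SE 0.453, adjusted p = 0.899) in hippocampus. No sirtuin was called, none had an unadjusted p under 0.05 by edgeR or DESeq2, and the test called 0% of 21861 genes in cortex and 0.0419% of 21486 in hippocampus.

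Minocycline during RSD in AA mice showed the same layout by block. Sirt4 in cortex lay at 20.9 to 28.6 CPM (median 24.3) in the 12 earlier libraries and at 7.38 to 13.9 CPM (median 10.3) in the 6 later ones. Sirt7 lay at 36.7 to 55.7 CPM (median 47.9) and 19.1 to 28.2 CPM (median 24.4). Against AA + RSD, Sirt4 stood at +0.94 (SE 0.427, adjusted p = 0.356) and Sirt7 at +0.87 (SE 0.331, adjusted p = 0.313). No sirtuin was called by edgeR or DESeq2, 2 of 7 had an unadjusted p under 0.05, and the background was 0% of genes (0.0419% in hippocampus, where Sirt4 stood at +0.87). Against AA without RSD, 0 of 7 were called beside 0.0503% of genes in cortex and 0% in hippocampus.

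Minocycline without RSD was compared with no treatment in SS mice. Of 4 cortex SS + minocycline libraries, the 2 earlier ones had Sirt4 at 21.1 and 22.6 CPM and the 2 later ones at 8.57 and 11.5 CPM. Sirt1, a nuclear member, was at 16.5 and 19.2 CPM in the 2 earlier cortex libraries and at 5.13 and 6.47 CPM in those of mice 9889 and 9888, while their hippocampus libraries had 7.99 and 10.98 CPM. Sirt5 was the only member with an unadjusted p under 0.05 in cortex, at 12.7 to 13.8 CPM against 10.7 to 12.8 CPM in SS, a log2 difference of +0.30 (SE 0.0855, adjusted p = 0.666). No sirtuin was called by edgeR or DESeq2 in either tissue, and the background was 0% of genes in both. A single AA + minocycline mouse had Sirt4 at 20.4 CPM in cortex and 21.8 CPM in hippocampus, both in the earlier columns, and no test was made on it.

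Among the later columns alone, Sirt1 stood at +1.03 (SE 0.247, unadjusted p = 0.000997, edgeR adjusted p = 0.323) in SS + RSD + minocycline against SS + minocycline in cortex, again resting on mice 9888 and 9889. With all columns no sirtuin was called in that comparison or in SS + RSD + minocycline against SS, with 0% of genes called in each tissue. In the latter, Sirt4 differed by -0.05 (SE 0.207) in cortex, where the groups had similar shares of earlier libraries (6 of 8 and 10 of 14).

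The sickle genotype itself did not move the family past the test. SS against AA gave a Sirt4 difference of +0.44 (SE 0.226, adjusted p = 0.678) and a Sirt7 difference of +0.38 (SE 0.158) in cortex, where 0.206% of 22870 genes were called, and 0 of 7 sirtuins. In hippocampus Sirt4 stood at +0.34, with 0 of 7 called beside 0.158% of genes. With RSD, SS against AA mice gave 0 of 7 beside 0% of genes in cortex and 0.0171% in hippocampus. With RSD and minocycline, it gave 0 of 7 beside 0.599% and 2.73%, with members between -0.04 (Sirt5) and +0.16 (Sirt7) in cortex and between -0.08 (Sirt3) and +0.09 (Sirt1) in hippocampus. DESeq2 also called none in these comparisons, and unadjusted edgeR p-values under 0.05 were found for Sirt7 in SS against AA and Sirt5 in SS + RSD against AA + RSD, both in cortex.

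The difference of the RSD effect between genotypes was tested as an interaction. For Sirt4 it was -0.51 (SE 0.465) in cortex and -0.44 in hippocampus, and 0 of 7 members were called or had an unadjusted p under 0.05, beside 0% and 0.0128% of genes called. The interaction with RSD + minocycline gave -0.34 (SE 0.288) for Sirt4 in cortex, again with 0 of 7 beside 0% of genes in both tissues.

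Mice that met neither RSD nor minocycline showed how far the family moved without either. The mice were sorted here by label number into 3 series, called A, B and C, each joining separate runs of numbers. All SS + RSD and AA + RSD mice were in A. In control mice (AA and SS, genotype as a term) series B against A gave 6 of 7 sirtuins called in each tissue, beside 43.2% of 17512 genes in cortex and 45% of 18668 in hippocampus. Sirt4 rose by 1.02 (SE 0.168, edgeR adjusted p = 0.000231) in cortex and by 0.78 (adjusted p = 0.0043) in hippocampus. Sirt7 rose by 0.67 and 0.42, Sirt6 by 0.37 and 0.42 and Sirt1 by 0.43 and 0.36, while Sirt3 fell by 0.24 and 0.28 and Sirt2 fell by 0.17 and 0.40. Sirt5 did not pass (+0.08, adjusted p = 0.400, and -0.06, adjusted p = 0.548). With the column block as a term 0 of 7 were called, beside 0.0171% and 0.00536% of genes. In each tissue every series A control lay in the later columns, and of the series B controls only 2 AA libraries did. The contrast with the term rests on those 2 libraries, so it cannot tell series and block apart for most control mice.

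Within series B alone, SS + minocycline against SS in cortex had 4 sirtuins called, beside 27.1% of genes: Sirt4 fell by 1.24 (adjusted p = 0.0166), Sirt1 fell by 1.27 (SE 0.210, adjusted p = 0.00184), Sirt2 rose by 0.46 (adjusted p = 0.0271) and Sirt3 rose by 0.46 (adjusted p = 0.0122). That contrast sets mice 9888 and 9889, in the later columns, against SS mice in the earlier ones.

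No sirtuin was called between the tissues. Hippocampus against cortex gave 0 of 7 sirtuins called in AA mice, beside 26.7% of 24187 genes, and 0 of 7 in SS mice, beside 21.3%. DESeq2 and the fit with the mouse as a replicate block also called 0 of 7, and no member had an unadjusted p under 0.05 in the edgeR fit with the block or without it. With the block the lowest was that of Sirt3 in SS mice, at -0.16 (SE 0.0849, unadjusted p = 0.0573, adjusted p = 0.14). Without it the largest difference in both genotypes was that of Sirt3, at -0.13 (SE 0.0901, adjusted p = 0.354) in AA and -0.17 (SE 0.112, adjusted p = 0.297) in SS. In the 63 mice with both tissues Sirt3 CPM was higher in hippocampus in 14, Sirt2 in 43 and Sirt6 in 41, with median log2 ratios of -0.12, +0.05 and +0.08. Sirt4 was higher in hippocampus in 28 of the 63 and Sirt7 in 27. The difference between tissues in the RSD effect in SS mice was called for 0 of 7 (Sirt4 -0.02, SE 0.414).

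As group means, tissue markers went with the labels. All 6 hippocampal neuron markers tested were called higher in hippocampus, among them Dsp (+6.83), C1ql2 (+2.79) and Prox1 (+2.58). Of 6 cortical neuron markers 5 were called lower, led by Lamp5 (-2.58) and with Cux2 (-1.77) among them. Single libraries varied: in cortex SS + RSD + minocycline the summed CPM of the cortical neuron markers ran from 253 to 737 (median 665). Of 14 genes of NAD synthesis and transport, 7 were called higher and 2 lower in hippocampus of AA mice (median +0.16 beside +0.02 for all genes), including Naprt, which starts NAD synthesis from nicotinic acid (+0.93), Qprt of the tryptophan route (+0.85) and the nicotinamide riboside kinase Nmrk1 (+0.68). Of 11 other NAD-consuming enzymes 3 were higher, a share near the 26.7% of all genes called: the NAD glycohydrolase Cd38 (+2.003), the DNA-damage sensor Parp1 (+0.66) and the axon-degeneration enzyme Sarm1 (+0.22). Among 13 nuclear and cytosolic sirtuin substrates Foxo1 was higher (+1.14) and Foxo3 lower (-0.69).

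Genes around the sirtuins were read from lists in the same fits. In cortex SS + RSD against SS, where 2.57% of genes were called, 2 of 11 zinc-dependent histone deacetylases, the other family of protein deacetylases, were called lower and none higher: Hdac7 (-1.37, SE 0.345, adjusted p = 0.0405) and Hdac10 (-0.85, SE 0.238, adjusted p = 0.0491). The list's median was +0.04 beside +0.08 for all genes. Of 13 genes of NAD synthesis 1 fell, Nadsyn1, which makes NAD by its final amidation step (-0.61, adjusted p = 0.0405). Of 13 nuclear and cytosolic substrates 1 fell, the CREB coactivator Crtc2 (-0.69, adjusted p = 0.0425). No NAD-consuming enzyme, mitochondrial substrate or regulator of SIRT1 was called. In hippocampus, where 3.11% of genes were called, 4 of 11 histone deacetylases fell, led by Hdac7 (-1.29), Hdac10 (-0.84) and Hdac6 (-0.51), and so did Nudt13, an NADH-cleaving hydrolase (-0.42).

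Under minocycline during RSD, several of these genes were called in the opposite direction, in a comparison that shares the SS + RSD libraries. In cortex, where 8.85% of genes were called, 3 of 11 histone deacetylases rose, namely Hdac7 (+1.23), Hdac10 (+0.80) and Hdac3 (+0.28), with a list median of -0.02 beside -0.05 for all genes. In NAD synthesis Nmrk1 (+0.68) and Nadsyn1 (+0.53) rose and Nmnat2, the axonal NAD synthase (-0.23), fell. The aldehyde oxidase Aox1 (+0.63) and Nudt13 (+0.36) rose among 4 NAD and nicotinamide clearing enzymes. Parp2 rose among 11 NAD consumers (+0.39), a share near that of all genes. Of 13 nuclear and cytosolic substrates 3 rose, with Crtc2 (+0.65) and the DNA-repair protein Xrcc6 (+0.23) among them. In hippocampus, where 5.96% of genes were called, Hdac7 (+1.11), Hdac6 (+0.43), Hdac3 (+0.29), Crtc2 (+0.57), Nudt13 (+0.33) and the mitochondrial pore component Ppif (+0.32) rose, and Cd38 fell (-0.52).

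Some of these genes were also called between number series. In control mice, series B against A gave Hdac7 +1.23, Hdac10 +0.79, Hdac6 +0.48, Nmrk1 +0.74, Nadsyn1 +0.42, Crtc2 +0.68 and Nudt13 +0.34 in cortex, each called, but so were 43.2% of all genes. With the block as a term 3 genes in all were called there, in a contrast that rests on 2 AA libraries of series B. With the block as a term in cortex SS + RSD against SS, Hdac7 stood at -0.15 (SE 0.149), Hdac10 at -0.12, Nadsyn1 at -0.26 and Crtc2 at -0.11. With that term 0 genes were called in SS + RSD against SS in either tissue and in SS + RSD + minocycline against SS + RSD in cortex, so every call on these lists was lost there. In hippocampus SS + RSD + minocycline against SS + RSD 3.98% of genes were called with the term, and each of the 7 genes named above for that tissue lost its call. Of the 13 nuclear and cytosolic substrates 2 were called higher with the term, Xrcc6 (+0.22, adjusted p = 0.049) and the tubulin Tuba1a (+0.30, adjusted p = 0.0449).

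Between the genotypes, the RNA of a different enzyme of NAD use differed in bulk tissue. Bst1 (CD157), an NAD-consuming cell-surface enzyme, rose in SS against AA by 2.08 in cortex (SE 0.409, adjusted p = 0.0044) and by 1.83 in hippocampus (SE 0.343, adjusted p = 0.00227), the one call among the 11 enzymes of its list. With the block as a term it stood at +2.26 (adjusted p = 0.000465) and +1.93 (adjusted p = 0.000118), beside 0.341% and 0.329% of genes called and 0 of 7 sirtuins. Hic1, a repressor of Sirt1 transcription, rose by 0.63 in cortex (adjusted p = 0.044), while Sirt1 itself differed by +0.01. All 4 tested markers of red cell precursors rose in the same comparison, among them Slc4a1 (+3.20) and Hba-x (+3.15) in cortex, with list medians of +3.17 in cortex and +3.39 in hippocampus. In bulk tissue, more cells of a type and more RNA per cell cannot be told apart, and the part of blood cells in the Bst1 value was not tested.

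Cell type markers moved beside the sirtuins. In cortex SS + RSD against SS, 1 of 6 microglia markers was called beside 2.57% of genes, the receptor Csf1r (+0.41, adjusted p = 0.0491), with a list median of +0.44 beside +0.08 for all genes. The summed CPM of the list was 251 to 341 in SS (median 282) and 315 to 440 in SS + RSD (median 346). The endothelial, oligodendrocyte, astrocyte and neuron lists had no member called there. In hippocampus SS + RSD against SS no marker on any list was called. The summed CPM of the oligodendrocyte list there had a median of 2233 in SS and 3336 in SS + RSD, that of the microglia list 335 and 393 and that of the endothelial list 204 and 238, and the ranges overlapped for all 3. The list medians of log2 changes were +0.41, +0.36 and +0.24 beside +0.06 for all genes, and that of the choroid plexus list was +1.95, while the median of its summed CPM was lower in SS + RSD (40.7 against 118 in SS), with ranges up to 9219 and 2391. In cortex SS + RSD + minocycline against SS + RSD, where 8.85% of genes were called and the median of all genes was -0.05, 2 of 6 microglia markers fell, Csf1r (-0.40) and Tmem119 (-0.50), with a list median of -0.31. Of 5 endothelial markers Pecam1 (-0.63) and Tek (-0.59) fell (list median -0.59), and of 6 astrocyte markers Aldh1l1 (-0.46) and Gja1 (-0.40) fell (list median -0.36). With the block as a term no marker was called in either comparison: Csf1r stood at +0.14 (SE 0.0927) for RSD in SS cortex, and under minocycline Csf1r stood at -0.14, Tmem119 at -0.12, Pecam1 at -0.29, Tek at -0.34, Aldh1l1 at -0.35 and Gja1 at -0.19. In hippocampus SS + RSD the marker sums had medians of 393 (microglia), 238 (endothelial), 4613 (astrocyte), 3336 (oligodendrocyte) and 5873 (neuron) CPM. With minocycline during RSD they were 320, 182, 3951, 3123 and 5841 CPM, and the ranges overlapped for each list. The part of cell composition in the sirtuin changes was not tested.

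Sirt2, an oligodendrocyte-rich transcript, tracked the summed CPM of 9 oligodendrocyte markers within blocks. The relation was computed for all 7 genes in 2 tissues and 2 blocks (28 relations), and only for Sirt2 did any pass an adjusted permutation p of 0.05. Pearson's r was 0.74 (adjusted permutation p = 0.00028) and rho 0.65 (adjusted permutation p = 0.00112) in the earlier hippocampus columns (n = 36), and 0.55 (adjusted permutation p = 0.0338) and 0.65 (adjusted permutation p = 0.00392) in the later ones (n = 27). In cortex it was 0.47 (adjusted permutation p = 0.0338) with rho 0.70 (adjusted permutation p = 0.00028) in the earlier columns (n = 37) and 0.22 (adjusted permutation p = 0.856) with rho 0.18 in the later ones (n = 28). Without the 2 libraries farthest from the median marker sum, r was 0.63 and 0.66 in hippocampus and 0.41 in the later cortex columns.

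**Figure D5:**
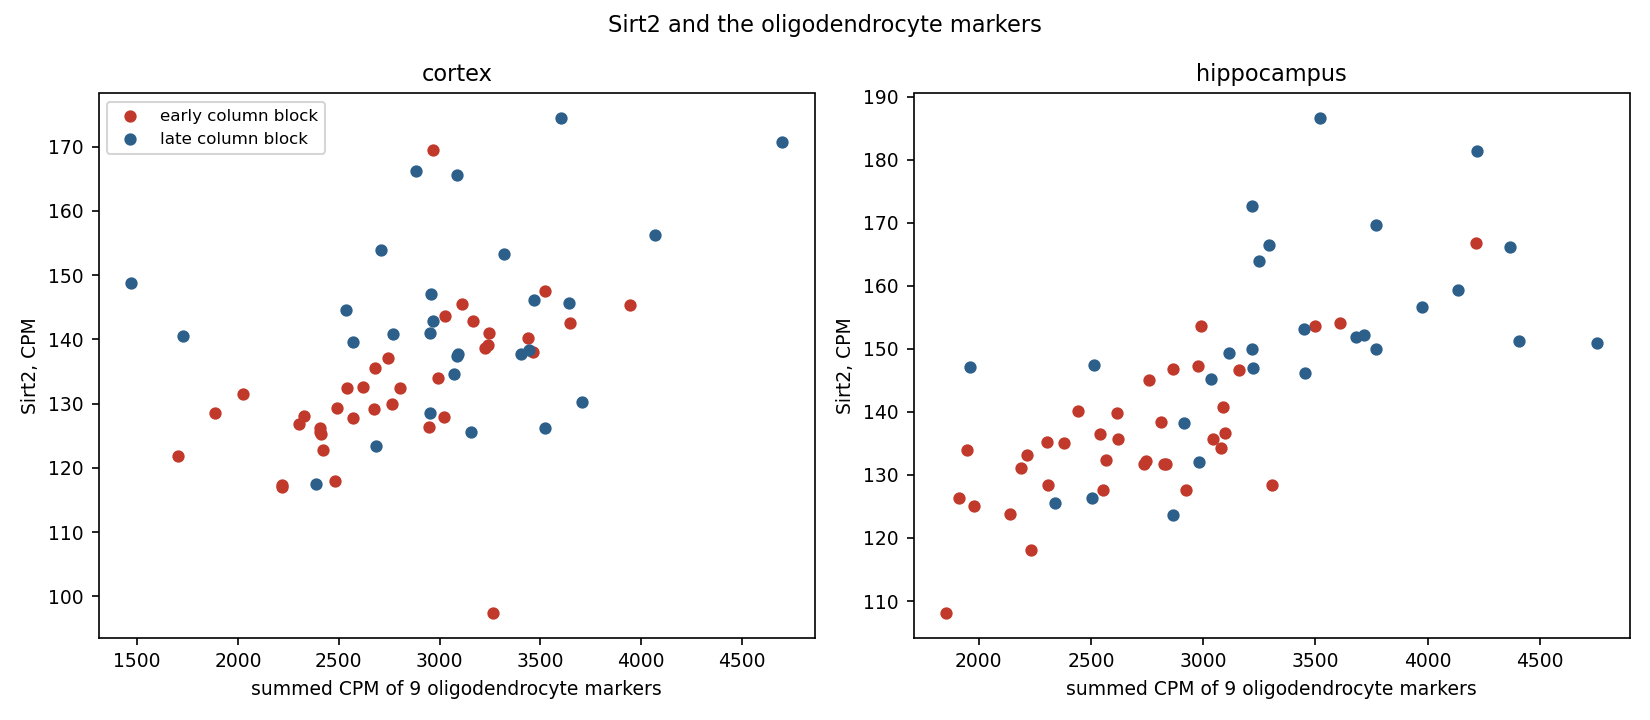
Sirt2 CPM against the summed CPM of 9 oligodendrocyte markers, 1 point per library, in cortex and hippocampus, red for columns 1 to 37 and blue for columns from 39 on. Sirt2 rises with the marker sum in both colours in hippocampus, and the blue points in cortex show no clear slope (r = 0.22).

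Pairs of sirtuins were also compared within blocks, over 84 relations, of which 41 had an adjusted permutation p under 0.05 by Pearson's r and 44 by Spearman's rho. Sirt4 and Sirt7 went together in each block. In cortex r was 0.82 with rho 0.79 in the earlier columns (adjusted permutation p = 0.00014 and 0.000168, n = 37) and 0.72 with rho 0.71 in the later ones (adjusted permutation p = 0.000373 and 0.00042, n = 28). In hippocampus it was 0.78 with rho 0.70 (adjusted permutation p = 0.00014 and 0.00028, n = 36) and 0.76 with rho 0.61 (adjusted permutation p = 0.00014 and 0.00331, n = 27). Without the 2 libraries farthest from the median of Sirt4, r was 0.76 and 0.65 in cortex and 0.68 and 0.65 in hippocampus. Sirt6 and Sirt7 had r of 0.75, 0.67, 0.72 and 0.60 in the same order of tissues and blocks, with rho of 0.78, 0.68, 0.75 and 0.52, and the adjusted permutation p was at most 0.00349 by r and 0.019 by rho. Without the 2 libraries farthest from the median of Sirt6 these r were 0.84, 0.60, 0.70 and 0.39, so the value in the later hippocampus columns rests on those libraries. Sirt1 ran against Sirt3 in the earlier cortex columns (r = -0.51, adjusted permutation p = 0.00599; rho = -0.49, adjusted permutation p = 0.0102; r = -0.62 without 2 libraries) and in the later ones (r = -0.49, adjusted permutation p = 0.0211; rho = -0.45, adjusted permutation p = 0.0383). In hippocampus the pair had r = -0.65 in the earlier columns (adjusted permutation p = 0.000315; rho = -0.69, adjusted permutation p = 0.000168) and r = -0.40 in the later ones (adjusted permutation p = 0.0688; rho = -0.43, adjusted permutation p = 0.052). The points of a block come from several groups, CPM values of 1 library are parts of 1 total, and the part of depth and composition in these relations was not tested.

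The genes whose pattern was most like each sirtuin were ranked by r of log2 CPM after each group's mean was subtracted, over 65 cortex and 63 hippocampus libraries. For Sirt4 they were Clasrp (0.98), Miat (0.98) and Lrrc45 (0.98) in cortex and Zfp692 (0.97), Mir124a-1hg and Cfp in hippocampus. For Sirt7 they were Ppox (0.97), Ubxn11 and A230050P20Rik in cortex and Sdccag3 (0.97), Dus3l (0.97) and Ppox (0.97) in hippocampus. For Sirt6, Ciz1 (0.94) led in cortex and Prpf40b (0.96) in hippocampus. After the block means were subtracted too, r was 0.86 for Clasrp, 0.80 for Zfp692, 0.82 for Ppox in cortex and 0.88 for Sdccag3.

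Other members had their own neighbours. Sirt2 was most like Lgmn (0.86) in cortex, with Glul also among its nearest genes, and Rhog (0.93), Slc48a1 and the myelin gene Mbp (0.91) in hippocampus, the last at 0.82 after block means were subtracted. Sirt3 was most like Lage3 (0.92) in cortex and Cdkn2d (0.95), Lamtor4 and Cox14 in hippocampus. Sirt1 was most like Rfx7 (0.94) and Rnf138 (0.92). Sirt5 had no close neighbour, with best values of 0.53 (Mettl8) in cortex and 0.50 (2210408F21Rik) in hippocampus among 13398 and 13479 genes.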

How the data were processed

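Total RNA from cerebral cortex and hippocampus of male Townes mice was made into libraries and sequenced by the authors, who aligned reads to GRCm39 with STAR and counted them per GENCODE gene. The deposited files hold raw read counts, 1 table per tissue, with 55416 genes and 135 samples in all, and 3 columns of the tables were not used here. The versions of STAR and GENCODE and the strand setting are not given in the sources used here. Rows for unmapped, multi-mapped, outside-gene and ambiguous reads stayed out of library sizes and tests. The share outside genes is given above.

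Groups came from the labels. A sample whose labels name different tissues had no group (1 of 135), and the identical libraries and mouse 9674 were left out, which left 65 cortex and 63 hippocampus libraries. Genes passing filterByExpr (minimum count 10, minimum total 15) were scaled by TMM and tested with edgeR 4.0.16 quasi-likelihood tests (glmQLFit, glmQLFTest) in R 4.3.3, with Benjamini-Hochberg adjustment over all genes tested at 0.05. Comparisons within a genotype used all libraries of that genotype and tissue, and those between genotypes or tissues used all libraries concerned. Labels do not state that mice were raised or handled apart, so p-values measure the spread between these samples. The authors describe RSD in cages of several mice that met the same intruder. The labels do not name the cage, so mice of 1 cage could not be grouped and may not be independent. The authors describe an experiment with RSD alone and a second cohort given minocycline or plain water. The labels do not name the cohort of a mouse. DESeq2 1.42.0 and the other settings in the closing section were alternatives. The column block was added after the data were seen.

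Correlations used permutation tests with 100000 resamples (SciPy 1.17.1). Mice carry the same number in both tissues and gave 1 library to each, and deviations from group means correlated over 0.1 in 62 of 62 mice (median 0.465), so a fit with the mouse as a replicate block was run beside the tissue comparisons, whose printed values have no block unless the block is named. On simulated counts for SS + RSD against SS, edgeR recovered 28% of 100 genes changed 1.5-fold in each tissue, and 57% (cortex, 19906 genes) and 55% (hippocampus, 20701 genes) of 100 changed 2-fold. Named genes were all sirtuins, up to 3 called members of largest change per list and comparison, and the 3 genes most like each sirtuin. Members, lists and tests were chosen with earlier results of these data known. Promoter windows came from RefSeq and matched all 7 genes. Some genes that this rule names are not reported here.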

Additional observations from a re-analysis of the deposited data

Results flagged for a closer look

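Among 42 sets of 4 to 10 libraries, each 1 sirtuin in 1 group and tissue, 1 had a value that stood apart from its group by Dixon's criterion, which chance alone meets in about 1 of 20 sets. Sirt7 in cortex was at 20.01 CPM in SS + RSD mouse 9621, while the other 5 libraries of that group (n = 6) lay between 24.4 and 26.1 CPM, a gap of 0.714 of the group's range. Without this mouse the Sirt7 change of SS + RSD against SS in cortex was -0.70 on the log2 scale (edgeR adjusted p = 0.0899) in place of -0.75 (adjusted p = 0.0405).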

How the results depend on the processing

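Of the 7 sirtuins, the number called in cortex SS + RSD against SS went from 2 to 0, and in hippocampus from 2 to 0, with the column block as a term, in the later columns alone, with no filter on low counts, with the number series or the share outside genes as a term, and in series A alone. In hippocampus it was also 1 with RLE size factors and 0 without the libraries labelled 5844, 5853, 7078 and 9631. Leaving out 1 SS + RSD mouse at a time gave 0 to 2 in both tissues. In SS + RSD + minocycline against SS + RSD the number went from 3 to 0 in cortex and from 1 to 0 in hippocampus with the block, series or share term and in the later columns alone. In hippocampus it was also 0 with no filter and 2 by DESeq2, and leaving out 1 mouse gave 0 to 2. In series B alone it went from 0 to 4 in cortex SS + minocycline against SS and to 2 in SS + RSD + minocycline against SS + minocycline, where 5225 and 4420 genes were called in all. In control mice of series B against A it went from 6 to 0 with the block term in both tissues and with the share term to 0 in cortex and 1 in hippocampus (Sirt2, -0.34). With the block term that comparison rests on 2 AA libraries of series B in the later columns of each tissue. All SS + RSD mice were in series A and no SS + RSD + minocycline mouse was, so the series term there rests on other groups. The other causes were not tested.

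Directions were followed for Sirt4, Sirt6 and Sirt7 in both SS comparisons above and for the sirtuins called in control mice, and reversed in these cases (log2). In other comparisons uncalled values also changed sign under some alternatives. In cortex SS + RSD + minocycline against SS + RSD, the series term gave Sirt4 -0.21, Sirt6 -0.040 and Sirt7 -0.0077, and the later columns gave Sirt6 -0.020. In hippocampus the series term gave Sirt4 -0.017 and Sirt7 -0.025, the later columns Sirt4 -0.091, Sirt6 -0.11 and Sirt7 -0.12, and the block term Sirt6 -0.0097. In control mice of series B against A, the block term gave Sirt6 -0.12 in cortex and Sirt4 -0.20, Sirt6 -0.14 and Sirt7 -0.42 in hippocampus, and the share term gave Sirt6 -0.14 and Sirt7 -0.026 in cortex and Sirt7 -0.068 in hippocampus.

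Counts over all genes moved too. SS + RSD against SS called 511 genes in cortex (0 to 3348 over the alternatives) and 643 in hippocampus (0 to 1509), and SS + RSD + minocycline against SS + RSD called 1762 (0 to 2705) and 1234 (0 to 2298). SS + minocycline against SS called 0 in cortex but 5225 in series B alone, and SS against AA called 47 (0 to 265). The mouse as a replicate block in tissue comparisons raised the calls from 6468 to 8220 in AA and from 5142 to 7535 in SS and left 0 of 7 sirtuins called.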
